A study of Mus musculus with 68 samples.

Results

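The 8 genes described here encode red cell surface proteins that carry blood group antigens or move small molecules across the membrane: Rhag, Rhd, Kel, Xk, Gypc, Ermap, Icam4 and Aqp1. They were taken as a fixed list of gene symbols, and all 8 were found among the 24059 symbols of both count tables and passed the low-count filter in every comparison. Levels are in CPM, a gene's count scaled by the total count of its library to the same total in all, given per library or as mean ± SD.

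The mammalian red cell carries its blood groups on transport and adhesion proteins of its membrane. Rhag, the Rh-associated glycoprotein, is an ammonium channel and forms the core of the Rh complex with Rhd, the Rh antigen protein. Icam4 (the LW antigen) is an adhesion molecule of that complex, and the anion exchanger Slc4a1, Cd47 and the ankyrin Ank1 surround it. Kel is a surface endopeptidase that in human red cells is bonded to Xk, a membrane protein with lipid scramblase activity. Gypc is a glycophorin that ties the membrane to the skeleton through protein 4.1 and Mpp1. Ermap (the Scianna antigen) is an erythroid butyrophilin-like protein, and Aqp1 (the Colton antigen) is the water channel of red cells, also made by endothelium.

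RNA was sequenced from mouse bone marrow erythroid cells enriched by flow cytometry, in 68 libraries of 2 series. The stage series followed 8 gates, beginning with 2 kinds of progenitor, BFU-E in 3 libraries and CFU-E in 5, then 7 of ERY-I (source name ProE), 4 each of ERY-II (BasoE), ERY-III (PolyE) and ERY-IV (OrthoE), 7 of ERY-V (Retic) and 4 of ERY-VI (RBC), with no genotype named. The knockout series covered 5 gates with 3 GS-KO and 3 WT libraries apiece: the progenitors BFU-E and CFU-E, then the broader gate ERY-I-II, the gate labelled ERY-III-VI (source name PolyE/OrthoE) and the late gate ERY-V-VI. GS is not spelled out in the labels and is taken here as glutamine synthetase, the product of Glul. The labels give no strain, age, allele or promoter. They also do not say whether libraries of a group came from separate mice, so p-values reflect library-to-library spread alone, and that spread may be technical.

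Stage libraries held between 1630863 and 11472763 counts, and knockout libraries between 3131142 and 15806844. In 4 stage gates (BFU-E, CFU-E, ERY-I, and also ERY-V) replicates 1 to 3 carried Y-linked transcripts (12 libraries) and the other 26 stage libraries carried Xist, so that all of ERY-II, ERY-III, ERY-IV and ERY-VI were Xist-positive and all of BFU-E was Y-positive. Sets of that kind are named below because the members differed between them. Globin genes took 57.2 to 71.1% of counts in stage ERY-VI and 0.00276 to 0.00998% in stage BFU-E, and a gene's CPM falls as that share grows. Erythroid markers fitted the labels in that Alas2, the erythroid heme synthesis enzyme, averaged 5919.8 CPM in stage ERY-III and 7.28 CPM in stage BFU-E, while Kit averaged 1.06 CPM in ERY-III and 946 CPM in BFU-E.

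The start regions of 4 members are shown because these genes differed in their level in BFU-E, Rhag and Rhd being low there and Ermap and Aqp1 already high. Each runs from 250 bases before to 50 bases after the RefSeq start on build GRCm38.p6, 5′ to 3′ on the gene's strand: Rhag at chr17:40810899-40811198 (plus strand), Rhd at chr4:134864286-134864585 (plus), Ermap at chr4:119189946-119190245 (minus) and Aqp1 at chr6:55336049-55336348 (plus). Capitals mark matches, on either strand, to the GATA motif (the letters AGATAA, with T also allowed first and G also allowed last) or to the CACCC motif CCNCNCCC.
Rhag: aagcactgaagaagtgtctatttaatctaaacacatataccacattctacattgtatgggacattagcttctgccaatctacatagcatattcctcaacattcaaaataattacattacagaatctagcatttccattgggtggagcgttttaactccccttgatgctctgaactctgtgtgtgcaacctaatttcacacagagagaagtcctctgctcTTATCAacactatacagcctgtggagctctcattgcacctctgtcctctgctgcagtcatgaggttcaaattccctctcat
Rhd: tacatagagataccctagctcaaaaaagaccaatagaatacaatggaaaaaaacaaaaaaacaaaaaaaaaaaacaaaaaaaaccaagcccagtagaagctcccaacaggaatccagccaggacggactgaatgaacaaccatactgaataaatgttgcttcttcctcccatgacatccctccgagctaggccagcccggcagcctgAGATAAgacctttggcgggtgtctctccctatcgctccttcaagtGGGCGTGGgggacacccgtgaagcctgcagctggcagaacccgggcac
Ermap: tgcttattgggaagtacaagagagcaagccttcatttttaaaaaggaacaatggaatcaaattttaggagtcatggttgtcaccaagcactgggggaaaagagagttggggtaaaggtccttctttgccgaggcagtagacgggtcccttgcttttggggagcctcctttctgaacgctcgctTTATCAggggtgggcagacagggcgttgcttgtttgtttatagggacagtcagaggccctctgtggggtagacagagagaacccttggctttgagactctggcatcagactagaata
Aqp1: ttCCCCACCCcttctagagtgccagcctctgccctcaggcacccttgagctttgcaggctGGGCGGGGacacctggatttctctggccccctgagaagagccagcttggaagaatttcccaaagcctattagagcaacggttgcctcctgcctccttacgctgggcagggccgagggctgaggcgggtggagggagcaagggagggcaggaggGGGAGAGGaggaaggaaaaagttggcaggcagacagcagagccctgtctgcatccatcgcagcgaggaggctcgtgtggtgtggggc

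Of the members without a printed start region, Kel spans chr6:41686330-41704339 (minus strand), Xk chrX:9272756-9313250 (plus) and Icam4 chr9:21029373-21030595 (plus) in GENCODE M21 on GRCm38. A GATA match began 31 bases before the start of Rhag, 43 before that of Rhd, 67 before that of Ermap and 43 before that of Icam4, and Kel had matches 56 and 19 bases before its start. Aqp1 and Xk had none in this window, which says only that these letters were not found there. Of 32851 RefSeq start regions of the same length 29.8% held a GATA match. CACCC matches, found in 49.5% of all regions, lay 3 bases after the start of Rhd, 112 and 64 before that of Icam4, 248, 190 and 37 before that of Aqp1, and at 13 places of Xk, most of them overlapping each other. A start region of Gypc is not shown. The E-box letters CANNTG, present in 72.3% of regions, were searched as well and are not marked. All of these matches are descriptions of sequence, and binding was not measured.

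Along the stage series the 8 genes made 3 kinds of course in CPM: a steep climb from a low start (Rhag, Rhd, Kel, Gypc and Icam4), a shallow climb from a high start (Ermap and Aqp1), and an early, low peak (Xk). All of them ended low in ERY-VI. The highest mean CPM belonged to ERY-I for Xk, to ERY-III for Rhd, Gypc, Icam4 and Aqp1, and to ERY-IV for Rhag, Kel and Ermap. Not all of these peaks stood clear of the spread. Per kilobase of exon Ermap averaged 326 ± 79.6 CPM in ERY-II and 328 ± 109 CPM in ERY-IV. Kel averaged 260 ± 65.5 and 278 ± 86.9 CPM per kilobase there. In the tests below, on another scale, Xk was higher in ERY-II than in ERY-I (log2 fold change 0.89 ± 0.33). The mean at the highest gate was 25.5 times that of BFU-E for Rhd, 14.5 times for Rhag, 10.6 times for Gypc, 8.28 times for Kel, 5.72 times for Icam4, 2.65 times for Xk, 1.99 times for Aqp1 and 1.94 times for Ermap. All BFU-E libraries were Y-positive, while all ERY-III and ERY-IV libraries were Xist-positive. For every member but Xk, gate and library set therefore cannot be told apart in these ratios. In bulk samples fewer cells of a type and less RNA per cell cannot be told apart.

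**Figure D1:**
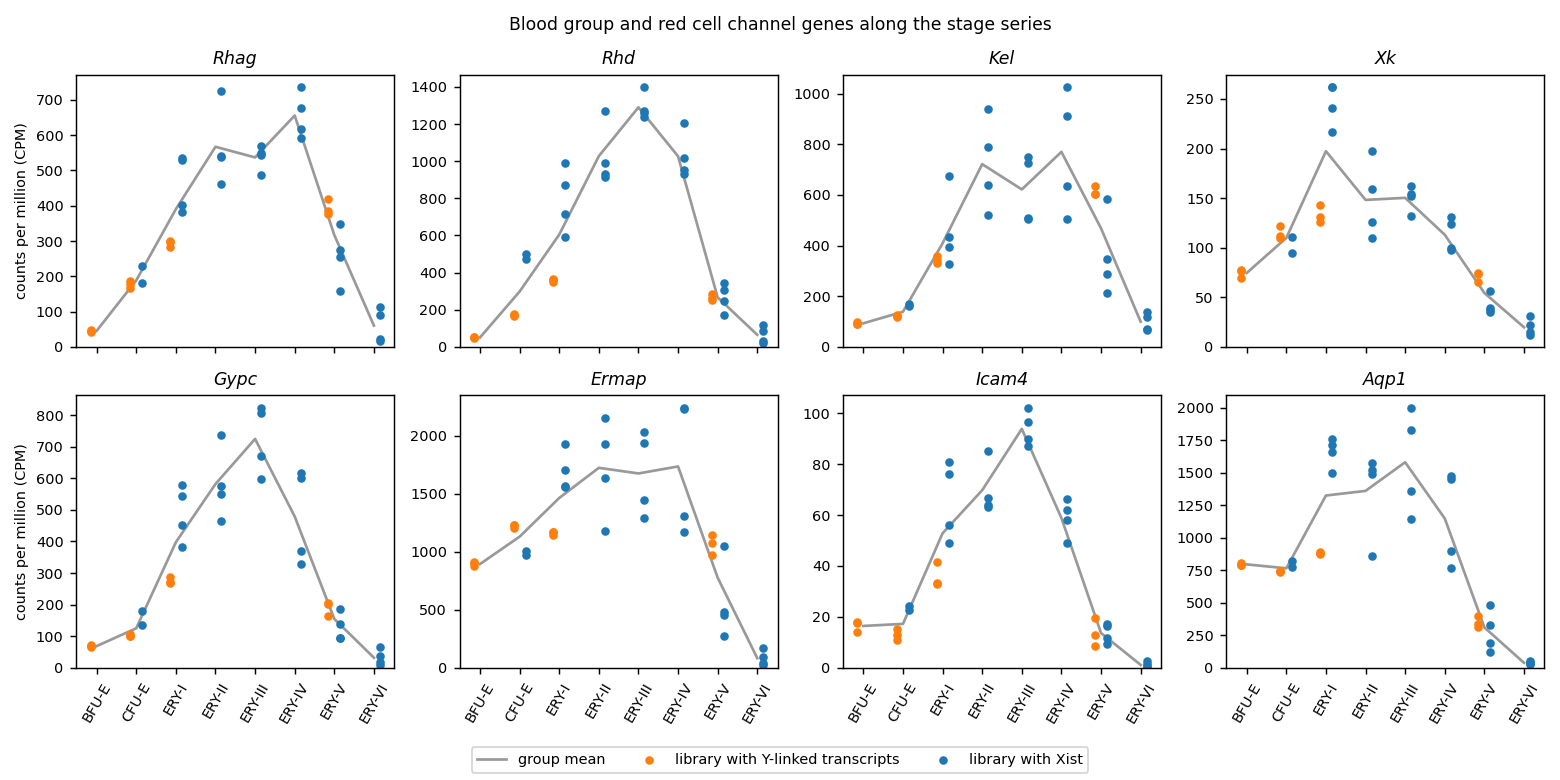
CPM of each member in every stage library (points, coloured by Y-linked transcripts or Xist) and the group mean (line), from the least to the most mature gate, on linear axes from 0. Rhag and Rhd climbed steeply after BFU-E, Aqp1 and Ermap began high, and Y-positive ERY-I libraries lay below Xist-positive ones for 7 of 8 members without overlap. Overlap was not counted over all genes.

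Rhag had 47.1, 43.3 and 45.7 CPM in BFU-E libraries and 167, 187, 177, 181 and 230.5 CPM in CFU-E libraries. It then ran from 284 through a median of 381 to 536 CPM in ERY-I, and had 539.6, 462, 726 and 541 CPM in ERY-II, 570.1, 486, 549 and 543 CPM in ERY-III and 678, 618, 736 and 591 CPM in ERY-IV. In ERY-V it ran from 159.7 through a median of 348 to 419 CPM, and in ERY-VI it had 20.9, 16.6, 90.7 and 113 CPM. Its gates did not overlap between BFU-E, CFU-E and ERY-I, while ERY-II and ERY-III lay together, and all ERY-VI libraries were under all ERY-V libraries.

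Rhd had 51.5, 53.9 and 46.3 CPM in BFU-E libraries, and in CFU-E its libraries split into 166, 178 and 172 CPM (Y-positive) and 472 and 501 CPM (Xist-positive). It ran from 347 through 591 to 988 CPM in ERY-I and had 992, 915, 1272 and 931 CPM in ERY-II, then 1398, 1257, 1269 and 1236 CPM in ERY-III and 1208, 1019, 929.8 and 950.2 CPM in ERY-IV. ERY-V libraries lay between 169.6 and 344 CPM with a median of 263 CPM, and ERY-VI libraries had 31.5, 21.8, 85.7 and 120.2 CPM. The sets did not overlap in CFU-E, and the count ratio of Rhag to Rhd, which no scaling of a library changes, ran from 0.383 to 1.05 there over both sets. In ERY-III, where all libraries were Xist-positive, that ratio ran from 0.387 to 0.439.

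Icam4 was the scarcest member in CPM, at 13.9, 17.8 and 17.5 CPM in BFU-E and 102, 87.1, 89.9 and 96.6 CPM in ERY-III. In ERY-VI it had 0, 1.42, 0.56 and 2.45 CPM, from 0, 3, 1 and 4 counts, and the library without a count allows up to 0.883 CPM (3 counts of 3396874, counting error only). An antisense gene, Gm47079, overlaps its exons on the opposite strand and is not in the tables. The strand setting of the counting is not given in the sources used here, so reads of the pair cannot be told apart.

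Kel had 91.6, 90.1 and 97.3 CPM in BFU-E and 121, 119, 124, 161 and 167 CPM in CFU-E. ERY-I ran from 326 through 361 to 674 CPM, and later gates spread widely, with 787, 639.6, 939 and 519 CPM in ERY-II, 748, 726, 506 and 507 CPM in ERY-III and 911, 1027, 635 and 506 CPM in ERY-IV. In ERY-V it ran from 215 through 585 to 635 CPM, and in ERY-VI it had 67.7, 72.4, 119 and 139 CPM. Neighbouring gates between ERY-II and ERY-IV overlapped for Kel.

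Xk, the partner of Kel in human red cells, took another course, with a mean of 74.5 ± 4.54 CPM in BFU-E, 109.9 ± 9.72 CPM in CFU-E, 197 ± 62 CPM in ERY-I, 148 ± 38.6 CPM in ERY-II and 19.7 ± 8.52 CPM in ERY-VI. The count ratio of Kel to Xk averaged 1.25 ± 0.132 over the 3 BFU-E libraries, 1.28 ± 0.320 over the 5 of CFU-E, 2.17 ± 0.554 over the 7 of ERY-I, 4.87 ± 0.162 over the 4 of ERY-II, 4.14 ± 0.829 over the 4 of ERY-III, 6.70 ± 1.20 over the 4 of ERY-IV, 8.50 ± 1.56 over the 7 of ERY-V and 5.95 ± 4.03 over the 4 of ERY-VI (SD), where it ran from 3.11 to 11.9. That ratio is within each library and so does not depend on globin or scaling.

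Gypc averaged 68.4 ± 3.61 CPM in BFU-E, 125 ± 33.8 CPM in CFU-E, 398 ± 131 CPM in ERY-I, 582 ± 114 CPM in ERY-II, 725 ± 108 CPM in ERY-III, 479 ± 151 CPM in ERY-IV, 155 ± 47.2 CPM in ERY-V and 31.7 ± 25 CPM in ERY-VI. Only neighbours between ERY-I and ERY-IV overlapped in that order. Replicates 1 and 2 of ERY-IV, at 618 and 600.5 CPM, stood apart from replicates 3 and 4, at 327 and 371 CPM.

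Ermap had 909, 900.5 and 874 CPM in BFU-E, ran from 1144 through 1556 to 1932 CPM in ERY-I and had 2239.6, 2233, 1308 and 1167 CPM in ERY-IV. Aqp1 had 792, 803 and 791 CPM in BFU-E, ran from 877 through 1499.8 to 1758 CPM in ERY-I and had 1831, 1998, 1358 and 1142 CPM in ERY-III. Both dropped late, Ermap to 21.5, 89.9, 44.2 and 174 CPM and Aqp1 to 26.8, 50.2, 29.7 and 42.9 CPM in ERY-VI. Endothelial markers, which could accompany Aqp1, summed over 12 genes to 1.94 to 11.0 CPM in ERY-III, where Emcn and Esam were at 0 in every library and Aqp1 was at its highest mean. They summed to 245 to 261 CPM in BFU-E, where 4 of the 12 averaged at least 10 CPM, Eng among them at 152 CPM, and Emcn was again at 0. The part of endothelial cells in Aqp1 was not tested.

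Levels of different genes were compared per kilobase of exon. In stage BFU-E Aqp1 was the highest at 303 CPM per kilobase, then Ermap at 169, Kel at 33.5, Rhd at 31.7, Gypc at 29.4, Rhag at 19.4, Icam4 at 14.8 and Xk at 14.7 CPM per kilobase. In ERY-III Rhd led at 809 CPM per kilobase, before Aqp1 at 602, Ermap at 317, Gypc at 311, Rhag at 229.6, Kel at 224, Icam4 at 84.6 and Xk at 29.6 CPM per kilobase. Among neighbours in these orders, Kel and Rhd, Rhd and Gypc, and Icam4 and Xk in BFU-E, and Ermap and Gypc, and Rhag and Kel in ERY-III, differed by less than the larger of their SDs.

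**Figure D2:**
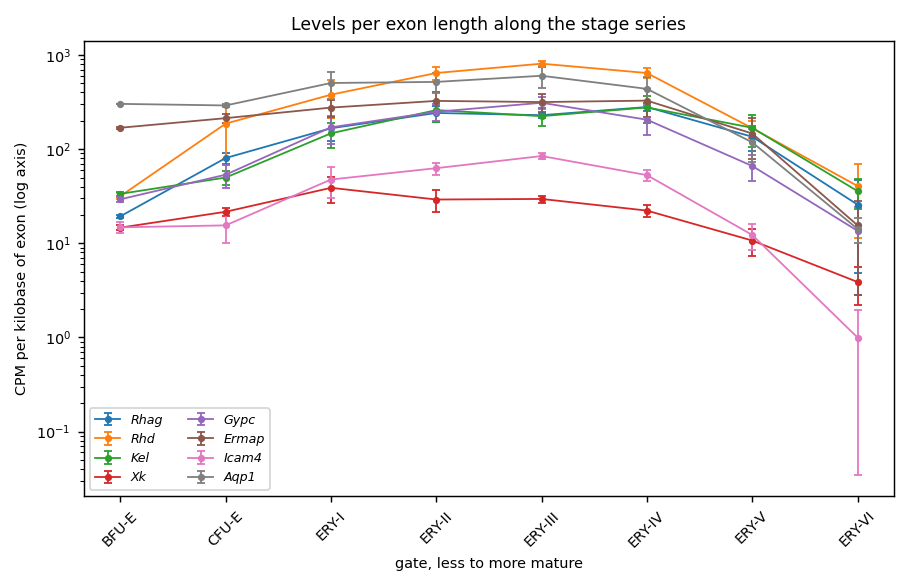
Mean CPM per kilobase of exon (log axis) with SD over libraries for each member along the 8 stage gates. Aqp1 and Ermap lead in BFU-E, Rhd leads in ERY-III at 809 CPM per kilobase, and Xk and Icam4 stay lowest.

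The steps between neighbouring gates were tested with edgeR on TMM-scaled counts, a scaling by the bulk of genes that sets aside more than globin. In ERY-II over ERY-I the median gene was at -1.68 with library totals, -1.26 with globin left out too and -0.35 with TMM. CFU-E were set against BFU-E first, the step between the progenitors. Of the members 6 rose and none fell in CFU-E, where 37.3% of 10807 genes passed. Log2 fold changes ± SE were 2.20 ± 0.17 for Rhag (adjusted p = 5.1e-05), 2.73 ± 0.52 for Rhd (adjusted p = 0.0039), 1.02 ± 0.25 for Gypc, 0.72 ± 0.18 for Kel, 0.69 ± 0.10 for Xk and 0.47 ± 0.11 for Ermap. Icam4 (0.21 ± 0.32) and Aqp1 (0.09 ± 0.12) did not pass. Within the Y-positive libraries of both gates the same 6 members passed with Rhd at 1.84 and Gypc at 0.68. The calls of Kel and Ermap ended without any 1 of the 3 BFU-E libraries (adjusted p = 0.050 to 0.062 for Kel and 0.058 to 0.064 for Ermap), and that of Gypc without replicate 1 or replicate 2, where the count was 3. With each Y-positive triplicate summed to 1 library the count was 0, with Rhag at 2.26 (adjusted p = 0.058). The call of Ermap also ended with library totals (0.34, adjusted p = 0.077).

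WT libraries of the knockout series held the same step, where 70.5% of genes passed. The same 6 members rose in WT CFU-E: Rhag by 1.90 ± 0.05, Rhd by 1.92 ± 0.05, Gypc by 0.68 ± 0.05, Ermap by 0.51 ± 0.02, Kel by 0.50 ± 0.05 and Xk by 0.36 ± 0.04. Icam4 (-0.15 ± 0.13) and Aqp1 (-0.05 ± 0.02, adjusted p = 0.051) did not pass, though Aqp1 was lower with library totals (-0.15, adjusted p = 2.4e-09). Rhag had 201, 203 and 198 CPM in WT CFU-E and 63.2, 56.6 and 55.7 CPM in WT BFU-E.

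All 8 members rose in ERY-I over CFU-E, where 46.4% of genes passed. Gypc rose by 2.12 ± 0.35, Icam4 by 2.07 ± 0.40, Kel by 1.99 ± 0.29, Rhag by 1.49 ± 0.29, Rhd by 1.47 ± 0.49, Xk by 1.29 ± 0.29, Aqp1 by 1.23 ± 0.30 and Ermap by 0.81 ± 0.24. The library sets gave different sizes. Xk was at 1.71 within the Xist-positive and 0.33 within the Y-positive libraries, and Ermap at 1.22 and 0.05, of which the last did not pass (adjusted p = 0.11). Kel gave 1.95 and 1.62 and Rhd 1.18 and 1.17 in these sets. In CPM the gates overlapped for Rhd and Ermap. The call of Rhd ended without ERY-I replicate 6 or 7 or CFU-E replicate 1, 2 or 3, and that of Ermap without ERY-I replicate 7. With the replicate block, in a step where the numbers paired the libraries, Ermap was at 0.42 and did not pass (adjusted p = 0.11), nor did it with library totals (0.38, adjusted p = 0.061). The call of Rhd also ended with summed triplicates (1.35, adjusted p = 0.076).

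Summed neutrophil markers ran from 13619 to 14004 CPM in the 3 Y-positive libraries of ERY-I and from 0.409 to 1259.6 CPM in the 4 Xist-positive ones, with all 9 markers above 10 CPM on average in the gate. The Y-positive libraries were also above the Xist-positive ones in summed macrophage markers (1765 to 1814 CPM against 7.15 to 172 CPM), B-cell markers (480.4 to 502 CPM against 0 to 53.4 CPM) and progenitor markers (704 to 714 CPM against 26.8 to 273 CPM). Beside them, Aqp1 had 882 ± 5.75 and 1658 ± 113 CPM and Rhd 356 ± 8.50 and 791 ± 174 CPM in these sets, in the same order. The part of these cells in the members' values was not tested. In the WT libraries ERY-I-II over CFU-E gave all 8 members as risen too, where 81.8% of genes passed, from 1.04 ± 0.02 for Ermap and 1.36 ± 0.04 for Xk to 2.55 ± 0.03 for Kel and 2.61 ± 0.10 for Icam4.

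In ERY-II over ERY-I all 8 members passed as higher on the TMM scale, where 45.3% of genes passed, with 2.12 ± 0.30 for Kel, 2.07 ± 0.42 for Rhd, 1.89 ± 0.34 for Rhag and 0.89 ± 0.33 for Xk. ERY-II held Xist-positive libraries only, and ERY-I both sets. Within Xist-positive libraries the values were smaller, at 1.87 for Kel, 1.63 for Rhd and 1.57 for Rhag. The CPM of the gates overlapped for every member, and the call of Xk ended within the Xist-positive libraries (0.51, adjusted p = 0.090), with no low-count filter (adjusted p = 0.10), with summed triplicates (adjusted p = 0.089) and in 8 of 11 fits that left out 1 library (adjusted p up to 0.17), those without ERY-II replicate 1, 3 or 4 or ERY-I replicate 1, 2, 3, 4 or 5. With library totals 3 members passed, where 7421 of 10327 genes passed, and Xk turned to -0.41. The median of the members was 1.79 beside -0.35 for all genes with TMM, and 0.47 beside -1.68 with library totals. ERY-III against ERY-II gave no member in either direction, where 0.185% of genes passed, with values from -0.40 ± 0.17 for Kel to 0.24 ± 0.22 for Icam4. The numbers paired the libraries in this step, which the main fit did not use, and with the replicate block 778 genes passed in place of 14. No member passed with DESeq2 or the replicate block either, and at an unadjusted p under 0.05 1 member, Kel, passed with edgeR.

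In ERY-IV over ERY-III 2 members passed as higher with TMM, where 13.6% of genes passed. In CPM the groups of Rhd, Xk and Icam4 did not overlap and ERY-IV was the lower, while the TMM values of these 3 members, 0.27, 0.18 and -0.03, did not pass. Rhag was higher in ERY-IV without overlap. The share of all genes without overlap was not counted. Kel rose by 0.87 ± 0.18 (adjusted p = 0.012) and Ermap by 0.61 ± 0.18 (adjusted p = 0.042) on the TMM scale, with 0.31 and 0.05 by library totals, which did not pass. Rhag lay just past the threshold at 0.91 ± 0.28 (adjusted p = 0.051) and passed with the replicate block (0.88, adjusted p = 0.0025), in another step where the numbers paired the libraries. With that block 1824 genes passed in place of 987. The call of Ermap ended without any 1 of the 8 libraries.

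The late gates were lower in the members' CPM, and the scale decided how many calls this made. Overlap in CPM was not counted over all genes. In ERY-V 7 of 8 members lay below ERY-IV in CPM without overlap, yet on the TMM scale only Aqp1 fell (-0.97 ± 0.25, adjusted p = 0.027), where 8.83% of genes passed. Library totals gave 5 lower members and library totals without globin genes gave 8, Rhd at -1.95 and -1.79. The call of Aqp1 ended within Xist-positive libraries (-0.67, adjusted p = 0.14) and without any 1 of replicates 1, 2 and 3 of ERY-V or 1, 2 and 4 of ERY-IV, while 2 members passed without ERY-V replicate 4 and 4 without replicate 6. Summed neutrophil markers ran from 1.51 through a median of 2759 to 3436 CPM in ERY-V and from 1.86 to 185 CPM in ERY-IV, with 9 and 3 of the 9 markers above 10 CPM on average, and summed macrophage markers reached 565 CPM in ERY-V and 151 CPM in ERY-IV. Their part in the members' values was not tested.

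In ERY-VI all 8 members lay below ERY-V in CPM without overlap, which was likewise not counted over all genes. On the TMM scale Ermap (-1.54 ± 0.36, adjusted p = 0.017) and Aqp1 (-1.25 ± 0.33, adjusted p = 0.031) fell, where 7.83% of genes passed. With library totals all 8 were lower, where 7 genes were called higher and 2212 lower, Xk included at -1.47 against 0.42 ± 0.42 with TMM. The members' median was -0.76 beside -0.34 for all genes with TMM, and -2.36 beside -2.24 with library totals. Calls of both members ended within Xist-positive libraries (adjusted p = 0.076 for Ermap and 0.055 for Aqp1) and without ERY-VI replicate 1 or 3, and 1 member passed without ERY-VI replicate 4 or ERY-V replicate 5 or 7.

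The WT gates of the knockout series spread less between libraries. In WT ERY-III-VI over WT ERY-I-II all 8 members passed as higher on the TMM scale, where 73.4% of genes passed, with 1.62 ± 0.03 for Kel, 1.42 ± 0.03 for Rhd and 0.59 ± 0.04 for Xk, of which Xk turned to -0.13 with library totals. In WT ERY-V-VI over WT ERY-III-VI Kel (0.71 ± 0.05), Rhag (0.52 ± 0.04), Ermap (0.48 ± 0.03) and Rhd (0.23 ± 0.05) passed as higher with TMM, where 31.2% of genes passed, but all 8 members were lower with library totals, from -0.45 for Kel to -1.42 for Icam4. The call of Rhd also ended with no filter on low counts (0.10, adjusted p = 0.13). Aqp1 had 825, 800.0 and 819.7 CPM in WT ERY-V-VI, against 1831, 1803 and 1796 CPM in WT ERY-III-VI. The median of all genes was -0.01 with TMM and -1.16 with library totals. These steps share WT gates with each other and with the knockout comparisons.

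The knockout comparison set GS-KO against WT libraries within each gate. Glul, taken here as the targeted gene, ran from 34.7 to 37.5 CPM in GS-KO CFU-E against 84.2 to 89.7 CPM in WT CFU-E, and from 12.8 to 24.0 CPM in the 3 later GS-KO gates against 104 to 268 CPM in WT. In BFU-E it was at 96.1 to 100.7 CPM in GS-KO against 120.0 to 125 CPM in WT. The GS-KO libraries also carried neutrophil markers, 9 of 9 above 10 CPM in every gate, which summed to 4314 to 13528 CPM over the GS-KO libraries and to 25.9 to 654 CPM over the WT libraries. Summed macrophage markers ran from 261 to 907 CPM over the GS-KO libraries and from 18.1 to 86.5 CPM over the WT libraries, and summed B-cell markers from 19.3 to 68.3 CPM and from 0.72 to 6.08 CPM. Summed progenitor markers ran from 317 to 337 CPM in GS-KO ERY-V-VI and from 17.8 to 27.1 CPM in WT ERY-V-VI, were higher in GS-KO also in CFU-E, ERY-I-II and ERY-III-VI, and were lower in GS-KO BFU-E (3625 to 3777 CPM) than in WT BFU-E (3999 to 4029 CPM), with no overlap in any gate. These move with genotype in every gate, and their part in the results below was not tested.

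**Figure D3:**
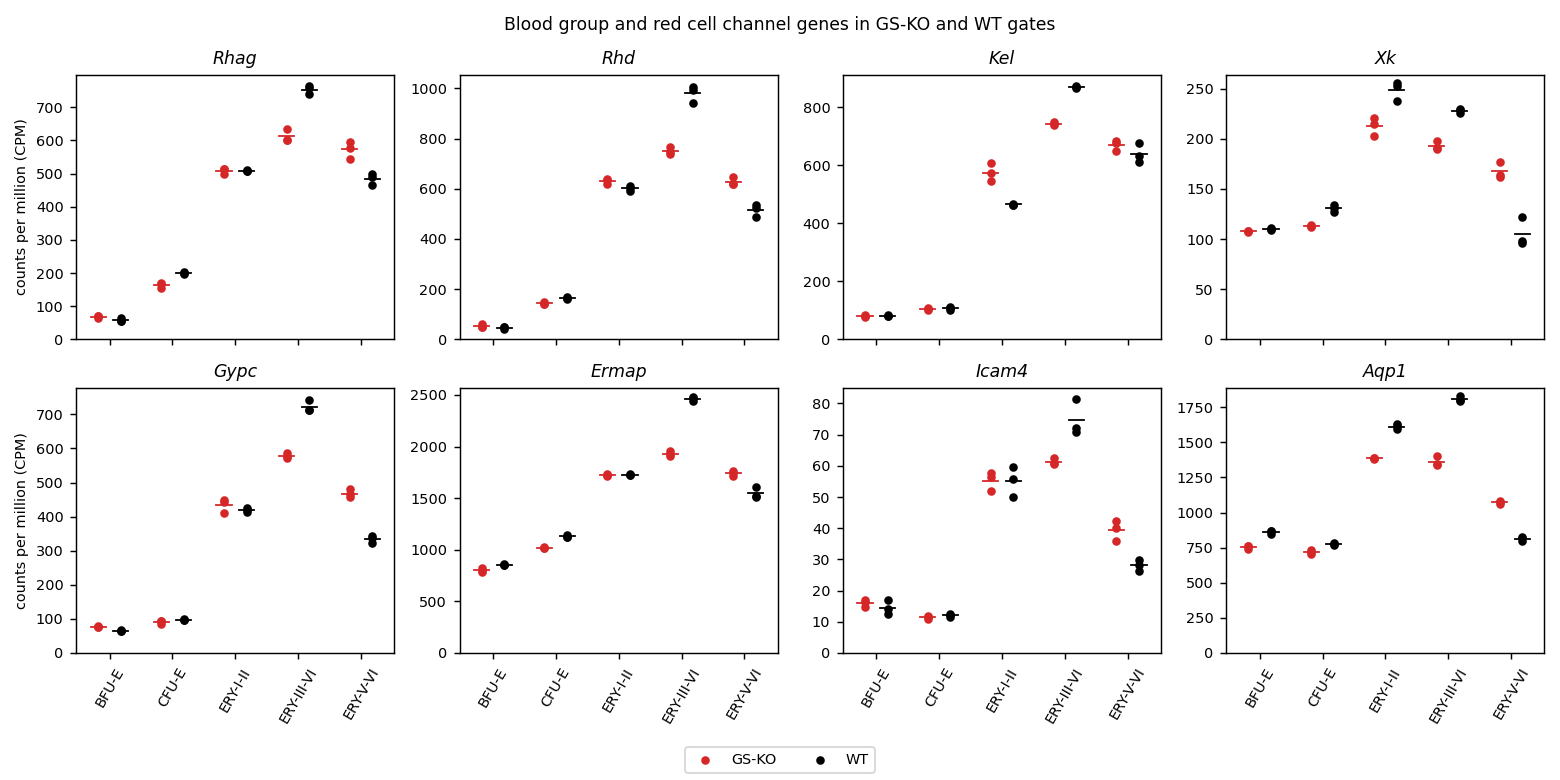
CPM of each member in the 3 GS-KO (red) and 3 WT (black) libraries of each gate, with group means as bars, on linear axes from 0. In ERY-III-VI every GS-KO library lies below every WT library for all 8 members, and in ERY-V-VI GS-KO lies above WT in CPM for 7 of them, although all 8 are lower there with TMM. Such separation was not counted over all genes.

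In GS-KO BFU-E 2 members rose and 2 fell, where 24% of genes passed. Rhag had 69.5, 72.1 and 64.6 CPM in GS-KO BFU-E, against 63.2, 56.6 and 55.7 CPM in WT BFU-E, a log2 fold change of 0.25 ± 0.07 (adjusted p = 0.0060). Gypc rose by 0.24 ± 0.07 (adjusted p = 0.0054). Aqp1 had 762, 737 and 765 CPM in GS-KO BFU-E, against 849.5, 871 and 868 CPM in WT BFU-E, and fell (-0.18 ± 0.03, adjusted p = 8.4e-08), as did Ermap (-0.08 ± 0.03). The calls of Rhag and Ermap ended without WT replicate 3 and GS-KO replicate 1. Slc4a1, a gene of later erythroid cells and a partner in the Rh complex, was at 247 ± 12.2 CPM in GS-KO BFU-E and 3.99 ± 1.09 CPM in WT BFU-E, a measured difference beside those of Rhag and Gypc whose part in them was not tested.

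In GS-KO CFU-E 5 members fell and none rose, where 29.4% of genes passed. Rhag had 154, 171 and 168 CPM in GS-KO CFU-E, against 201, 203 and 198 CPM in WT CFU-E (-0.28 ± 0.04, adjusted p = 1.75e-07). Xk and Rhd fell by 0.21 ± 0.04 each, Ermap by 0.16 ± 0.02 and Aqp1 by 0.11 ± 0.02 on the log2 scale. For these 5 members and for Gypc the GS-KO libraries lay below the WT libraries without overlap, but Gypc (-0.11 ± 0.05, adjusted p = 0.080) did not pass, and neither did Kel (-0.03 ± 0.05) or Icam4 (-0.10 ± 0.12). Here too overlap was not counted over all genes.

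In GS-KO ERY-I-II 5 members passed as higher and 2 as lower with TMM, where 40.4% of genes passed, against 2 and 2 with library totals. Kel had 573, 608 and 545 CPM in GS-KO ERY-I-II, against 465, 465 and 467 CPM in WT ERY-I-II, and rose by 0.42 ± 0.03 (adjusted p = 2.85e-21). Rhd rose by 0.19 ± 0.03, and both of these also passed with library totals. Aqp1 had 1391, 1381 and 1389 CPM in GS-KO ERY-I-II, against 1614, 1630.5 and 1593 CPM in WT ERY-I-II, and fell by 0.10 ± 0.02. Xk fell by 0.11 ± 0.04, a call that ended without GS-KO replicate 3 or WT replicate 1 or 2. Rhag, Gypc and Ermap were higher with TMM (0.12 ± 0.03, 0.17 ± 0.03 and 0.12 ± 0.02) and did not pass with library totals, where Ermap was at -0.0018.

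All 8 members fell in GS-KO ERY-III-VI, where 55.9% of genes passed, and all 8 were lower under each scaling run. Aqp1 had 1338, 1406 and 1347 CPM in GS-KO ERY-III-VI, against 1831, 1803 and 1796 CPM in WT ERY-III-VI (-0.57 ± 0.02, adjusted p = 5.7e-27). Rhd had 745, 765 and 738 CPM in GS-KO libraries, against 943, 993 and 1007 CPM in WT libraries (-0.55 ± 0.03). Ermap had 1905, 1952 and 1927 CPM in GS-KO libraries, against 2441, 2482 and 2469 CPM in WT libraries (-0.51 ± 0.02).

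The other 5 members of that gate fell by 0.39 to 0.48 on the log2 scale, Kel least and Gypc most. No member's groups overlapped in CPM, but how often groups stay apart was not counted over all genes. The members' median was -0.47 beside 0.05 for all genes tested, and -0.31 beside 0.21 with library totals. Neutrophil markers summed to 9923 to 10002 CPM in GS-KO ERY-III-VI and 252 to 255 CPM in WT ERY-III-VI.

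In GS-KO ERY-V-VI the direction of all 8 members depended on the scale. With TMM all 8 were lower, where 42.9% of genes passed, from -1.22 ± 0.05 for Kel, -1.12 ± 0.03 for Ermap, -1.05 ± 0.05 for Rhag and -1.01 ± 0.05 for Rhd to -0.63 ± 0.11 for Xk, but with library totals all 8 were higher and 7 passed, from 0.07 for Kel to 0.67 for Xk. Rhag had 544, 596 and 577 CPM in GS-KO ERY-V-VI, against 499, 489.9 and 465 CPM in WT ERY-V-VI. Kel had 651, 679 and 684 CPM in GS-KO libraries, against 631, 678 and 611 CPM in WT libraries, the only member whose groups overlapped in CPM.

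The globin share was 7.69 to 7.82% in GS-KO ERY-V-VI and 19.6 to 19.8% in WT ERY-V-VI. With globin genes left out and library totals, 3 members were called higher (Xk at 0.47, Gypc at 0.29 and Aqp1 at 0.20) and Kel lower (-0.13). The median of all genes was 0.15 with TMM (2110 genes higher and 1924 lower) and 1.44 with library totals (7219 higher and 361 lower). It was still 1.24 with globin genes left out and library totals. Each member lay below the median gene. The count ratio of Kel to Xk, free of scaling, was 3.85 to 4.21 in GS-KO ERY-V-VI and 5.01 to 6.92 in WT ERY-V-VI, without overlap and without a test.

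**Figure D4:**
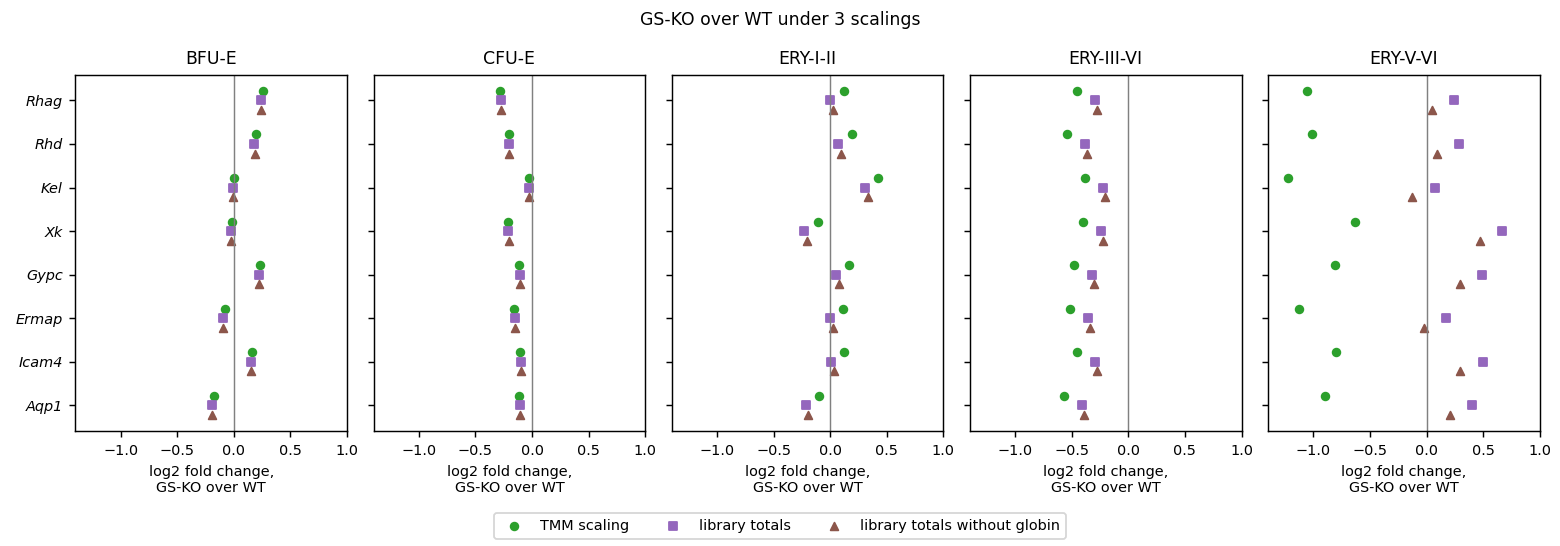
Log2 fold change of GS-KO over WT for each member and gate under TMM, library totals, and library totals without globin genes. All values lie below 0 in ERY-III-VI, while in ERY-V-VI TMM puts all 8 members below 0 and library totals put all 8 above.

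The effect of genotype differed between the 5 gates for all 8 members (edgeR interaction term, where 61.2% of 12051 genes passed), with adjusted p from 3.3e-36 for Ermap to 9.3e-08 for Icam4. Kel, for example, was at 0.42 ± 0.03 in ERY-I-II and -0.39 ± 0.03 in ERY-III-VI. All 8 also passed with library totals. Gates share no libraries. The globin share, at its median, was 0.0794% in GS-KO BFU-E and 0.00124% in WT BFU-E, 0.0628% in GS-KO CFU-E and 0.00235% in WT CFU-E, 2.95% in GS-KO ERY-I-II and 1.38% in WT ERY-I-II, and 5.74% in GS-KO ERY-III-VI and 4.75% in WT ERY-III-VI. Its part in the interaction was not tested.

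The 7 partners of the Rh and band 3 complex were listed with the members. In stage ERY-I over CFU-E and in ERY-II over ERY-I all 7 rose, with Slc4a1 at 8.04 ± 0.91 and 2.72 ± 0.48. In GS-KO ERY-III-VI 6 of 7 fell, with TMM, among them Slc4a1 (-0.46 ± 0.02), Ank1 (-0.45 ± 0.02) and Epb4.2 (-0.43 ± 0.03), while Epb4.1, protein 4.1, rose by 0.27 ± 0.02. In GS-KO BFU-E 6 of 7 rose, with Slc4a1 at 5.93 ± 0.09 and Epb4.2 at 2.77 ± 0.18, and in GS-KO CFU-E 3 rose and 1, Ank1, fell (-0.21 ± 0.03). In GS-KO ERY-I-II all 7 were higher with TMM.

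In ERY-V over ERY-IV none fell, and Epb4.1 (25528 CPM in ERY-V and 7964 CPM in ERY-IV) and Mpp1 (1.84 ± 0.42) rose with TMM, the scaffold proteins to which Gypc binds, while Gypc was at -0.68 ± 0.24 and did not pass (adjusted p = 0.084). With TMM all 7 were lower in GS-KO ERY-V-VI, Epb4.1 most (-2.70 ± 0.01), and their median was -1.61 with TMM and -0.31 with library totals.

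Of the partners 4 rose in CFU-E over BFU-E, 4 in ERY-IV and 1 in ERY-VI over the gate before, and 0 in ERY-III, none falling in these steps. In the WT steps 5 rose in CFU-E and 7 in each later gate with TMM, though the median of the partners in WT ERY-V-VI was 1.11 with TMM and -0.04 with library totals.

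Other blood group genes (27 listed, 16 to 20 tested per comparison) moved in both directions. With TMM 10 rose and 3 fell in stage CFU-E, 9 rose and 2 fell in ERY-I, 9 rose and 4 fell in ERY-II, and 2, 2 and 0 rose and 0, 1 and 1 fell in ERY-IV, ERY-V and ERY-VI. Art4 (the Dombrock antigen) led ERY-II at 2.67 ± 0.30 and ERY-IV at 1.47 ± 0.23, Ackr1 (the Duffy receptor) led ERY-I at 3.88 ± 0.92, and Abcb6 led CFU-E at 1.96 ± 0.42. Lowest were Slc44a2 in CFU-E (-1.28 ± 0.34), Abcc1 in ERY-I (-0.94 ± 0.23), Cd44 in ERY-II (-2.15 ± 0.54), Abcb6 in ERY-V (-1.06 ± 0.25) and Cd55 in ERY-VI (-3.14 ± 0.92).

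In WT steps with TMM 10 of these passed as higher and 8 as lower in CFU-E, 11 and 3 in ERY-I-II, 10 and 8 in ERY-III-VI, and 7 and 1 in ERY-V-VI. Their median turned with the scale, at 0.38 with TMM and -0.33 with library totals in WT ERY-III-VI and at 0.31 and -0.85 in WT ERY-V-VI. Ackr1 was at 8.89 ± 0.28 in WT ERY-I-II over WT CFU-E, from 36.0 ± 3.45 and 0.0801 ± 0.0694 CPM (SD). The size of that change rests on a reference near the floor of counting. In GS-KO with TMM 4 rose and 1 fell in BFU-E, 2 and 6 in CFU-E, 7 and 4 in ERY-I-II, 6 and 12 in ERY-III-VI, and 3 and 11 in ERY-V-VI. Prnp, the prion protein gene, was lowest in GS-KO ERY-III-VI at -0.68 ± 0.07 and Abcc1 highest at 1.94 ± 0.24, while Gcnt2 led GS-KO BFU-E at 1.76 ± 0.17. In GS-KO ERY-V-VI Art4 was lowest at -1.66 ± 0.08 and Cd44 highest at 1.72 ± 0.21, and the list's median was -0.58 with TMM and 0.72 with library totals.

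Other red cell channels and transporters (23 listed, 14 to 21 tested) moved both ways. With TMM 6 rose and 6 fell in stage CFU-E, 7 rose and 5 fell in ERY-I, 6 rose and 6 fell in ERY-II, 5 rose in ERY-IV and 2 fell in ERY-VI, and none passed in ERY-III or ERY-V. Slc6a9, a glycine transporter, led ERY-I at 6.72 ± 0.47 and ERY-II at 2.17 ± 0.37. Aqp9, a water and glycerol channel, led ERY-IV at 2.05 ± 0.26, where Aqp1 did not pass (0.11 ± 0.17). Kcnn4, a potassium channel, was lowest in ERY-VI at -2.25 ± 0.53.

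In WT steps with TMM 10 of the channel genes passed as higher and 7 as lower in CFU-E, 11 and 7 in ERY-I-II, 11 and 6 in ERY-III-VI, and 8 and 2 in ERY-V-VI. Their median was 0.39 with TMM and -0.33 with library totals in WT ERY-III-VI, and 0.28 and -0.87 in WT ERY-V-VI. In GS-KO 7 rose and 5 fell in BFU-E, 5 and 5 in CFU-E, 6 and 2 in ERY-I-II, 6 and 9 in ERY-III-VI, and 3 and 8 in ERY-V-VI. Aqp9 was the lowest called in GS-KO ERY-III-VI (-0.50 ± 0.08) and the scramblase Ano6 the highest (1.28 ± 0.16). Aqp9 was at -1.93 ± 0.12 in GS-KO ERY-V-VI, and the list's median there was -0.29 with TMM and 1.01 with library totals.

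Patterns across gates were described by Pearson correlation of group means of log2(CPM + 1), over 8 stage groups and over 10 knockout groups, which share depth and globin differences. Rhag and Rhd were at 0.979 and 0.998 with each other, and Aqp1 and Ermap at 0.981 and 0.846, while Kel and Xk were at 0.608 and 0.705. Among 9036 genes those most like each member by the lower of both values were Nxpe2, Agpat4 and the transferrin receptor Tfrc for Rhag (Nxpe2 at 0.994 and 0.998), and Nxpe2, Agtr1a and Mgll for Rhd. They were Rnf123, St5 and A730036I17Rik for Kel, the thymidine kinase gene Tk1, Wbp1 and Gid8 for Xk, and Fam53b, Plcl2 and Naprt1 for Gypc. For Ermap they were Usp7, Wapal and Slc20a1, for Icam4 Rdm1, Mesdc1 and Map3k1, and for Aqp1 Zfpm1 (the GATA1 cofactor FOG1), the potassium channel Kcnn4 and Prkab1.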

How the data were processed

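The authors deposited 2 tables of raw gene counts, 1 per series, with gene symbols in rows and libraries in columns. Per the labels' protocols the libraries were made from total RNA with a stranded SMARTer Pico Input kit (Takara). Per the submitters' processing notes the tools included STAR 2.5.2b and HTSeq, and the build was mm10. The strand setting of the counting is not given in the sources used here. All 68 columns matched a sample's labels.

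The members and gene lists were chosen with earlier results of these data known. CPM was each count divided by its library total. Overlap of groups in CPM was looked at for the members only, not over all genes. Each comparison was fitted on its own with edgeR 4.0.16 in R 4.3.3 (glmQLFit and glmQLFTest, filterByExpr with a minimum count of 10 and total of 15, TMM), with Benjamini-Hochberg adjustment over all genes and a threshold of 0.05. SE was the size of the log2 fold change over the root of F. The genotype-by-gate term was fitted over all 30 knockout libraries. The fit was tested on simulated counts.

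Same-numbered libraries deviated together (every pair's correlation above 0.1) in ERY-I with CFU-E (lowest 0.28), ERY-III with ERY-II (0.53) and ERY-IV with ERY-III (0.32), and the numbers were taken to pair those groups. The main fits did not use that pairing, which entered only as the replicate block. No replicate pair agreed within sampling noise, so none was merged as a repeat deposit of 1 library, which does not show separate animals. Chi-square over degrees of freedom had a median of 2.06 in knockout pairs, 2.94 in Y-positive stage pairs and 79.3 in other stage pairs.

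Scaling by library totals or RLE, DESeq2 1.42.0 in place of edgeR, globin genes left out, other filters, the replicate block, library sets, summed triplicates and leaving out each replicate were tried. Exon lengths and positions came from GENCODE M21, and start regions from RefSeq on GRCm38.p6, which held 7 of 8 members. The named genes outside the members were, per list and comparison, chosen from the called genes of at least 10 CPM with the largest and the smallest log2 fold change, partners aside, and the 3 genes most like each member among those with at least 10 CPM in a group of each series. The level of 1 listed partner is not reported here.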

Additional observations from a re-analysis of the deposited data

Results flagged for a closer look

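Of 56 member-and-gate groups of 4 to 10 stage libraries, 3 held a library far from the others, where chance gives about 1 in 20. Kel in ERY-I was highest in replicate 6 at 674 CPM, where the others ran from 326 to 434 CPM. Icam4 in ERY-II was highest in replicate 3 at 85.1 CPM, where the others ran from 63.2 to 66.8 CPM. Aqp1 in ERY-II was lowest in replicate 4 at 861 CPM, where the others ran from 1492 to 1573 CPM.

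The effect of GS-KO differed between gates for each member by edgeR's interaction term, as it did for 61.2% of 12051 genes. Markers of other cell types also moved with genotype in every gate, and their part was not tested. The adjusted p was 1.46e-27 for Rhag, whose log2 fold changes ran from -1.05 to 0.25 over the 5 gates, 5.56e-27 for Rhd (-1.01 to 0.19) and 5.39e-33 for Kel (-1.22 to 0.42). It was 1.15e-10 for Xk (-0.63 to -0.01), 5.93e-25 for Gypc (-0.81 to 0.24) and 3.29e-36 for Ermap (-1.12 to 0.12). It was 9.30e-08 for Icam4 (-0.80 to 0.16) and 2.42e-28 for Aqp1 (-0.90 to -0.10). The lowest value of every member was that of ERY-V-VI with TMM, which turned positive with library totals.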

How the results depend on the processing

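Over all alternatives 2102 single-member values kept their side of the threshold, and among these only values that passed on neither side changed sign, such as Icam4 in CFU-E over BFU-E. Another 36 turned round with a call on at least 1 side, 47 newly passed and 87 no longer passed. The cause was not tested. Globin genes left out with library totals was chosen after seeing the data. With library totals 3 members were called in ERY-II over ERY-I, 0 in ERY-IV over ERY-III, 5 in ERY-V, 8 in ERY-VI and 8 in WT ERY-V-VI over the gates before them, and 4 in GS-KO ERY-I-II. Over all genes 7421 of 10327, 634 of 7238, 411 of 6990 and 2219 of 5030 were called in those stage steps. In WT ERY-V-VI 5841 of 8025 genes were called, and in GS-KO ERY-I-II 4971 of 9954. With globin genes left out as well the counts were 0 in ERY-IV, 8 in ERY-V, 7 in ERY-VI, 8 in WT ERY-V-VI and 4 in GS-KO ERY-V-VI, beside 1369, 1269, 1186, 5189 and 7033 genes. With no filter 4 members were called in ERY-V, beside 1018 genes. Within Xist-positive libraries 0 were called in ERY-V and 0 in ERY-VI, beside 406 and 59 genes. With triplicates summed, a lone library assumed to vary like the others, 0 were called in CFU-E, ERY-V and ERY-VI, beside 105, 315 and 75 genes.

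With the replicate block the members called were 7 in ERY-I, 0 in ERY-III and 3 in ERY-IV, where the numbers paired the libraries, and 4 in ERY-V and 1 in ERY-VI, where they did not. Over all genes 5704, 778, 1824, 940 and 317 were called in those steps. Elsewhere it left the counts within 1.5 times.

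Leaving out 1 replicate gave 3 to 6 members in CFU-E over BFU-E, 6 to 8 in ERY-I, 7 to 8 in ERY-II, 0 in ERY-III, 1 to 2 in ERY-IV, 0 to 4 in ERY-V and 0 to 2 in ERY-VI. Over all genes 2291 to 4315 were called in CFU-E, 4333 to 4811 in ERY-I, 3859 to 4805 in ERY-II and 0 in ERY-III. The later steps gave 521 to 927 genes in ERY-IV, 127 to 971 in ERY-V and 182 to 510 in ERY-VI. In WT steps leaving out 1 replicate gave 6 to 7 members in CFU-E, 8 in ERY-I-II and ERY-III-VI, and 4 in ERY-V-VI. Those WT fits called 7271 to 7473, 8056 to 8397, 6520 to 6939 and 1788 to 2994 of all genes, in that order. For GS-KO it gave 3 to 5 members in BFU-E, 5 to 6 in CFU-E, 6 to 7 in ERY-I-II and 8 in the later gates and the interaction. Over all genes it gave 2279 to 2708 in BFU-E, 2725 to 3084 in CFU-E and 3695 to 3801 in ERY-I-II. The later GS-KO counts were 4988 to 5764 genes in ERY-III-VI, 3006 to 4567 in ERY-V-VI and 6081 to 6202 in the interaction.

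Values that turned round with library totals, then with globin genes left out too, were as follows. In ERY-II Xk was at -0.41 and -0.0093, and in WT ERY-III-VI at -0.13 and -0.079. In WT ERY-V-VI Rhag was at -0.64 and -0.39, Rhd at -0.93 and -0.68, Kel at -0.45 and -0.20, Xk at -1.11 and -0.86, Gypc at -1.12 and -0.87, Ermap at -0.67 and -0.43, and Aqp1 at -1.15 and -0.90, with Aqp1 at -0.12 with no filter. In GS-KO ERY-V-VI Rhag was at 0.25 and 0.0464, Rhd at 0.29 and 0.0885, Xk at 0.67 and 0.47, Gypc at 0.49 and 0.29, Icam4 at 0.50 and 0.30, and Aqp1 at 0.40 and 0.20. With library totals alone Kel was at 0.0743 and Ermap at 0.18 there, Ermap at -0.0018 in GS-KO ERY-I-II and Xk at -1.47 in ERY-VI, and with globin left out too Kel was at -0.64 in ERY-V.

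Counts over all genes moved by over 1.5 times as follows. In CFU-E over BFU-E 4031 became 7342 with the replicate block, 7303 within Y-positive libraries and 105 with summed triplicates. In ERY-I 4850 became 9091 and 3088 in those last settings, and in ERY-II 4679 became 7421 with library totals. In ERY-III 14 became 244 with DESeq2, 0 with RLE, with library totals or without globin, 42 with globin left out and library totals, and 778 with the block. In ERY-IV 987 became 634 with library totals and 1824 with the block. In ERY-V 617 became 1443 with DESeq2, 411 with library totals, 1269 without globin on library totals, 1018 with no filter, 940 with the block, 406 within Xist-positive libraries and 315 summed. In ERY-VI 394 became 675, 2219 and 1186 under the first 3 of those, 59 within Xist-positive libraries and 75 summed. In WT ERY-V-VI 2507 became 5841 and 5189, and in GS-KO ERY-V-VI 4034 became 7580 and 7033, with library totals and with globin left out too. Depth limits Icam4 most, with 0 to 4 counts in ERY-VI libraries, while the other members had at least 19 counts in every library.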
